A study of Mus musculus with 4 samples.

Results

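B cell identity and receptor signalling genes are described here in RNA-seq counts from sorted mouse lung γδ T cells. The set has 38 genes, taken by symbol from a list that was chosen with earlier results of these data known. All 38 of them stand among the 22865 gene symbols of the count table. They were divided into 12 genes of the B cell receptor and its signalling, 8 transcription factors and 18 surface and homing genes. All 38 passed the filter on low counts, with 9 to 1901 counts per gene and library. The libraries came from lungs of 10-week-old female C57BL/6 mice, 2 from Aire-/- and 2 from Aire+/+ animals. Aire is the thymic regulator through which T cell precursors meet proteins of other tissues. Smart-Seq2, which copies whole transcripts from few cells, was applied to 500 cells per library, sorted as viable, CD45 and γδ T cell receptor positive, and negative for TCRβ, CD27 and the Vγ1, 2, 4 and 5 chains. Whether the 2 libraries of a genotype came from separate animals is not stated, and a p-value here reflects the spread between libraries, part of which may be technical.

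A B cell senses antigen with a membrane immunoglobulin bound to the CD79A and CD79B chains, whose cytoplasmic tyrosines are phosphorylated by SRC family kinases and then dock the kinase SYK. SYK acts through the adaptor BLNK, the kinase BTK and phospholipase Cγ2 to raise calcium. PAX5 and EBF1 hold the B cell program in place, and surface receptors such as CD22, CD21 and CD40 set how strongly the cell answers. γδ T cells do not assemble this receptor, but γδ T cells that make interleukin-17 are known to express the kinase BLK.

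The libraries held 1106891 to 1265239 counts. The 38 genes took 0.641% and 0.592% of the counts in Aire-/- replicates 1 and 2, and 1.05% and 0.730% in Aire+/+ replicates 1 and 2. Exact binomial 95% intervals were 0.626 to 0.655, 0.578 to 0.607, 1.03 to 1.06 and 0.714 to 0.745, in that order. These intervals cover error in counting reads only. For every count of the CD3 chains, 13 of the genes that are largely restricted to B cells gave 1.97 and 1.38 counts (Aire-/-) and 4.09 and 1.80 counts (Aire+/+). The sorted identity was present too: Cd3e, a chain of the T cell receptor complex, stood at 121 ± 28.3 against 87.7 ± 22.3 CPM and Sox13, a transcription factor of γδ T cells that make interleukin-17, at 111 ± 11.03 against 66.5 ± 20.9 CPM (Aire-/- against Aire+/+, SD, n = 2 each). CPM is the count relative to the library size, with TMM factors applied. Aire itself had 0 counts in each of the 4 libraries and so checks no genotype label.

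The B cell genes lay lower in the Aire-/- libraries as a set, and none passed the test. Of the 38 genes 37 had a log2 fold change (Aire-/- minus Aire+/+) below 0, with a median of -0.52, where 49.1% of all 9783 genes tested lay below 0 and their median was 0.0099. By edgeR's quasi-likelihood test 0 of the 38 were called at an adjusted p under 0.05, with adjusted p from 0.61 to 0.99, beside 0.0204% of all genes. DESeq2 and limma-voom also called 0 of them. At an unadjusted p under 0.05, 14 of the 38 were lower and 0 higher, beside 2.77% and 2.8% of all genes. Both Aire-/- values lay below both Aire+/+ values for 20 of the 38 and above them for 0, beside 17.3% and 17.1% of all genes. Because the 38 were chosen with earlier results of these data known, these counts describe the set and are no independent test. The gate on the γδ T cell receptor is meant to exclude B cells, and which cells in the libraries carried these transcripts was not tested. In bulk RNA, fewer cells of a type and less RNA per cell cannot be told apart.

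One library carried much of this difference. Aire+/+ replicate 1 was the highest of the 4 libraries for 36 of the 38 genes, beside 25% of all genes tested, and Aire-/- replicate 2 was the lowest for 25 of them, beside 26.4%. The median log2 difference between the 2 Aire+/+ libraries was 0.61, with 36 of 38 genes higher in replicate 1. Against Aire+/+ replicate 1, the Aire-/- libraries differed by a median of -0.67 and -0.92. Against Aire+/+ replicate 2 they differed by -0.13 and -0.38, with 25 and 29 of the 38 genes lower. Without Aire+/+ replicate 1 the median log2 fold change was -0.20, with 31 of 38 genes below 0 and 2 lower at an unadjusted p under 0.05, beside 1.6% of all genes in that fit. Without Aire+/+ replicate 2 it was -0.74, and 5 genes were called lower by edgeR: Cd79a, Syk, Faim3, Fcer2a and Cd83. That fit called 42 lower and 21 higher of all 10629 genes it tested, or 0.395% and 0.198%.

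**Figure D1:**
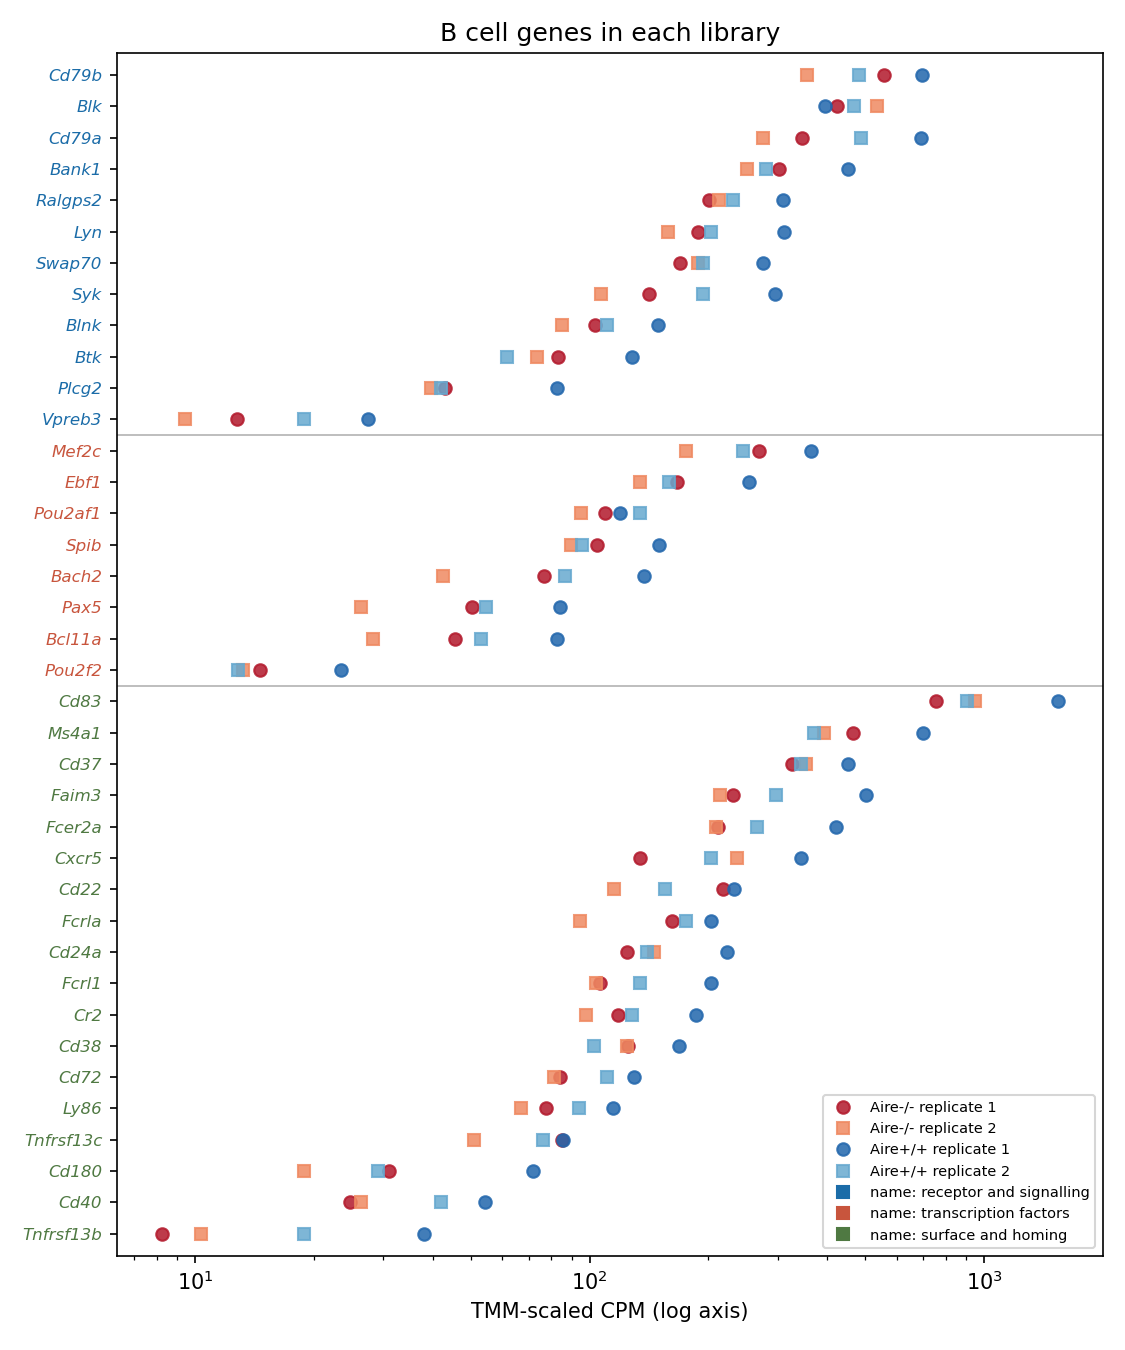
TMM-scaled CPM of each of the 38 genes (log axis) in each library, grouped by role and ordered by mean level, with red for Aire-/- and blue for Aire+/+ libraries. The dark blue circle of Aire+/+ replicate 1 is the rightmost point for 36 genes, the exceptions being Blk and Pou2af1.

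The receptor itself was represented by both of its signalling chains at close levels. Cd79a (chromosome 7, 24897381 to 24902197, GRCm38) stood at 345 and 275 CPM in Aire-/- and at 693 and 486 CPM in Aire+/+ samples. Its groups did not overlap, and it had the smallest p of the 38, at a log2 fold change of -0.93 with an SE of 0.22 (adjusted p = 0.61 by edgeR). Cd79b (chromosome 11, 106311341 to 106314762, GRCm38), the partner chain, stood at 558 and 355 CPM against 697 and 482 CPM. Here Aire-/- replicate 1 lay between the Aire+/+ libraries, and the log2 fold change was -0.37 (SE 0.24). The proteins pair as a heterodimer, and the counts of Cd79a per count of Cd79b were 0.619 and 0.775 (Aire-/-) against 0.994 and 1.01 (Aire+/+), a ratio chosen after its values were seen. The groups of this ratio did not overlap, and with 2 libraries a side an exact two-sided permutation test cannot go below a p of 0.333.

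Vpreb3, a protein that binds the immunoglobulin heavy chain during receptor assembly, was among the scarcest of the genes. Its counts were 14 and 10 against 34 and 22, or 12.8 and 9.43 against 27.5 and 18.8 CPM, and its log2 fold change was -1.05 with an SE of 0.50. Its groups did not overlap, but counts this low leave a wide error. Blnk, the adaptor that SYK phosphorylates, stood at 103 and 84.9 against 149 and 110 CPM (log2 fold change -0.46), again without overlap.

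The promoters of Vpreb3 and Blnk are shown because they hold the octamer, the site bound by the POU domain proteins of which Pou2f2 is 1 of the 38 genes, with Pou2af1 as its coactivator. Each sequence is the 250 bases before the RefSeq start site (GRCm38.p6, 5′ to 3′ on the gene's strand), and capitals mark a motif.
Vpreb3, chr10:75948050-75948299, plus strand: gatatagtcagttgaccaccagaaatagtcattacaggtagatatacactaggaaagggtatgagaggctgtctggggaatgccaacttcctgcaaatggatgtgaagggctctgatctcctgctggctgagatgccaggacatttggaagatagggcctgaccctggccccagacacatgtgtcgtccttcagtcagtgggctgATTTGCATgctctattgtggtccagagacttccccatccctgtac
Blnk, chr19:40994222-40994471, minus strand: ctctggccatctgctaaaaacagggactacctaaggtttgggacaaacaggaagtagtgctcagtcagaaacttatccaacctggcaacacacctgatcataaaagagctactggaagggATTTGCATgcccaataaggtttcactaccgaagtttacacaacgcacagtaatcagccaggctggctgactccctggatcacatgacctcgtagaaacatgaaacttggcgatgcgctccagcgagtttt
In both the octamer is read as ATTTGCAT, the reverse complement of ATGCAAAT, and it begins 45 bases before the start site in Vpreb3 and 130 bases before it in Blnk. RefSeq windows of 300 bases (250 before to 50 after the start site) were at hand for 30 of the 38 genes. On either strand the octamer stood in 2 of their 38 windows, or 5.26%, against 1.74% of all 32851 windows.

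Among the kinases of the pathway, Syk, the kinase that docks on the phosphorylated receptor, stood at 142 and 107 CPM in the Aire-/- and 295 and 193 CPM in the Aire+/+ libraries. It had no overlap, and its log2 fold change was -0.98 with an SE of 0.26 (adjusted p = 0.68 by edgeR). Lyn, the SRC family kinase that starts both activating and inhibitory signals, stood at 188 and 158 against 310 and 204 CPM. Its groups did not overlap either, and its log2 fold change was -0.57. Btk stood at 83.1 and 73.5 against 128 and 61.6 CPM, so that Aire+/+ replicate 2 was the lowest library. The log2 fold change of Btk, -0.28 over all 4 libraries, turned to 0.34 without Aire+/+ replicate 1.

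Blk, a SRC family kinase of both B cells and γδ T cells that make interleukin-17, was the 1 gene with a log2 fold change above 0. It stood at 425 and 535 CPM in the Aire-/- and at 395 and 469 CPM in the Aire+/+ libraries. The log2 fold change of Blk was 0.15 with an SE of 0.20 (adjusted p = 0.98 by edgeR). Its groups overlapped, and it was lowest in Aire+/+ replicate 1, the library in which 36 of the other 37 genes were highest. The summed CD3 chains were lowest there as well, at 1004 CPM against 1390, 1504 and 1532 CPM in Aire-/- replicates 1 and 2 and Aire+/+ replicate 2. The sign of the Blk difference turned when libraries were scaled to the CD3 chains (-0.081) and without Aire-/- replicate 2 (-0.027).

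The remaining signalling genes lay below 0 with overlapping or narrowly separated groups. Plcg2, the phospholipase Cγ2, stood at 42.9 and 39.6 against 82.4 and 41.9 CPM, so that 3 of its values were close together and Aire+/+ replicate 1 stood apart. Bank1, a scaffold that links LYN to calcium release, stood at 301 and 250 against 451 and 280 CPM (log2 fold change -0.41). Swap70, a signalling protein of activated B cells, and Ralgps2, an exchange factor for RAL GTPases, had log2 fold changes of -0.39 for both. Of the 12 receptor and signalling genes 11 lay below 0, with a median of -0.43. At an unadjusted p under 0.05, 3 were lower, beside 2.77% of all genes. Groups did not overlap for 7, with Aire-/- below, beside 17.3% of all genes.

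Genes of B cell signalling outside the 38 lay on both sides of 0. Of 25 such genes tested, among them adaptors, phosphatases and exchange factors, 12 lay below 0 and 13 above, with a median of 0.014. In either direction 0 were called by edgeR. At an unadjusted p under 0.05, 1 was lower and 0 higher, beside 2.77% and 2.8% of all genes. Many of the 25 also serve the T cell receptor. Cd81, a tetraspanin of many cell types, stood at 102 ± 14.8 against 165 ± 1.37 CPM (log2 fold change -0.69). Vav1, an exchange factor used by both receptors, had a log2 fold change of 0.69, and Prkcb, the protein kinase Cβ of B cell signalling, one of -0.59. None of these 3 passed (adjusted p from 0.83 to 0.91, edgeR).

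**Figure D2:**
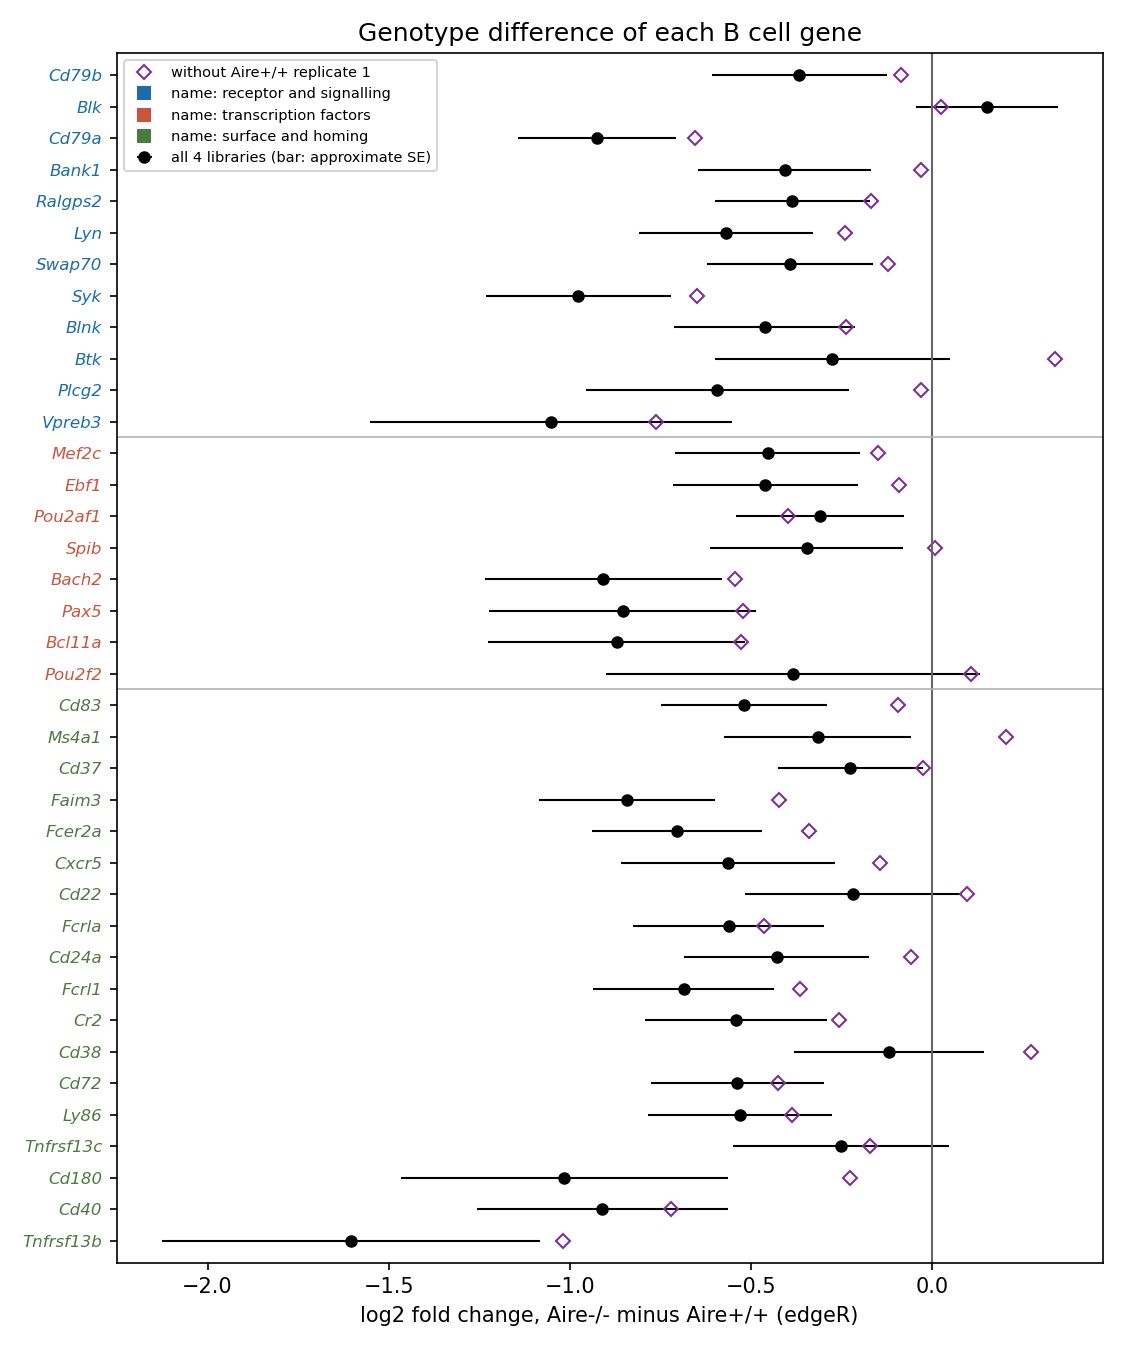
Log2 fold change (Aire-/- minus Aire+/+) of each gene from edgeR, as black points with approximate SE, and as open diamonds without Aire+/+ replicate 1. Only Blk lies to the right of 0 with all 4 libraries, and 7 diamonds do, the 6 genes besides Blk being Btk, Spib, Pou2f2, Ms4a1, Cd22 and Cd38.

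All 8 transcription factors lay below 0, with a median of -0.46. Pax5, which commits cells to the B lineage, stood at 50.2 and 26.4 CPM in the Aire-/- and 84.0 and 54.8 CPM in the Aire+/+ libraries. Its groups did not overlap, although Aire-/- replicate 1 lay close to Aire+/+ replicate 2, and its log2 fold change was -0.85 (SE 0.37). Ebf1, which acts beside PAX5 in early B cells, stood at 166 and 134 against 254 and 159 CPM. Its groups overlapped, with a log2 fold change of -0.46 (SE 0.26).

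Bach2, a repressor that holds back plasma cell differentiation, stood at 76.7 and 42.4 against 137 and 86.4 CPM (log2 fold change -0.91, SE 0.33). Bcl11a, a zinc finger factor of early lymphoid and B cells, stood at 45.7 and 28.3 against 82.4 and 53.0 CPM (-0.87, SE 0.35). Neither gene's groups overlapped. With Pax5 these were the 3 transcription factors lower at an unadjusted p under 0.05, beside 2.77% of all genes. All 3 were at adjusted p = 0.89 by edgeR. In each of the 3, Aire-/- replicate 2 was the lowest library, at 0.85 to 0.93 below replicate 1 on the log2 scale for Bach2 and Pax5 and 0.69 below for Bcl11a.

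Pou2af1, the coactivator of the octamer factors, was the 1 transcription gene that did not peak in Aire+/+ replicate 1. It stood at 110 and 95.2 against 120 and 134 CPM, so that Aire+/+ replicate 2 was highest, and its log2 fold change was -0.31 (SE 0.23) with all 4 libraries. Pou2f2, an octamer factor, was the scarcest of the 8 at 14.6 and 13.2 against 23.4 and 12.8 CPM, with overlapping groups. Mef2c, a MADS box factor that serves B cell proliferation, was the most abundant of them at 269 and 175 against 364 and 245 CPM (-0.45). Its groups overlapped too.

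Spib, an ETS family factor that B cells and plasmacytoid dendritic cells use, stood at 104 and 89.6 against 150 and 95.8 CPM (log2 fold change -0.35, SE 0.27). Aire+/+ replicate 2 lay between the Aire-/- libraries, and without Aire+/+ replicate 1 the log2 fold change was 0.0073. The upstream bases of Spib are shown for a match to the EBF1 half-site pair CCCNNGGG, and those of the surface gene Fcrl1 for a match to the ETS site GAGGAAGT that SPIB can bind, drawn in the same way with capitals at the matches.
Spib, chr7:44532072-44532321, minus strand: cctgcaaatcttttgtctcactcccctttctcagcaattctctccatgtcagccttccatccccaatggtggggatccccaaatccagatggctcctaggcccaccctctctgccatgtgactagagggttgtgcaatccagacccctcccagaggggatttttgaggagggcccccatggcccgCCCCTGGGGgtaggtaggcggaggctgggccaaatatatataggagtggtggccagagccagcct
Fcrl1, chr3:87376137-87376386, plus strand: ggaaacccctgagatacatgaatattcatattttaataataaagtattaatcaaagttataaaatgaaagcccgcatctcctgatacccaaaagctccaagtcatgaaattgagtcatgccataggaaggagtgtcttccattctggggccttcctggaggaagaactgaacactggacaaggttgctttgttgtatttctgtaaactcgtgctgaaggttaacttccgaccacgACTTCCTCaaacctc
In Spib 2 matches overlap, beginning 65 and 64 bases before the start site, and in Fcrl1 the site is read on the other strand as ACTTCCTC, beginning 15 bases before it. Over the windows of 300 bases, CCCNNGGG, whose reverse complement is itself, stood in 3 of 38 windows of these genes (7.89%), against 13.7% of all windows. GAGGAAGT stood in 3 of 38 (7.89%) against 3.20%. These are matches of letters only.

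All 18 surface and homing genes lay below 0, with a median of -0.54. Of them 8 were lower at an unadjusted p under 0.05, beside 2.77% of all genes, and 0 were called by edgeR. Groups did not overlap for 9 of the 18, with Aire-/- below, beside 17.3% of all genes. Ms4a1, which encodes CD20, stood at 466 and 393 CPM in the Aire-/- and at 698 and 370 CPM in the Aire+/+ libraries. Its lowest library was Aire+/+ replicate 2, and its log2 fold change of -0.32 (SE 0.26) turned to 0.20 without Aire+/+ replicate 1.

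The 4 Fc receptors and relatives among the 38 had groups that did not overlap, with Aire-/- below, beside 17.3% of all genes tested. In the other B cell lists, Fcgr2b (log2 fold change -0.00067) and Fcrl5 (0.21) had groups that overlapped. Faim3, now named Fcmr, the Fc receptor for IgM, stood at 231 and 214 against 501 and 297 CPM (log2 fold change -0.84, SE 0.24, adjusted p = 0.78, edgeR). Fcer2a, the low-affinity IgE receptor CD23 of mature B cells, stood at 212 and 209 against 421 and 265 CPM (-0.70, SE 0.23, adjusted p = 0.83, edgeR). In both genes the Aire-/- libraries lay close together and below both Aire+/+ libraries. Fcrl1, an Fc receptor-like surface protein, stood at 106 and 104 against 203 and 134 CPM (-0.69, SE 0.25), and Fcrla, its intracellular relative, at 162 and 94.3 against 203 and 175 CPM (-0.56). Neither overlapped.

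Of the receptors for survival and help signals, Tnfrsf13b, which encodes TACI, a receptor for BAFF and APRIL, had the largest log2 fold change of the 38, -1.60 with an SE of 0.52 (adjusted p = 0.83 by edgeR). It rested on 9 and 11 counts in the Aire-/- and 47 and 22 in the Aire+/+ libraries, or 8.22 and 10.4 against 37.98 and 18.8 CPM, with no overlap. Tnfrsf13c, the BAFF receptor of naive B cells, stood at 84.9 and 50.9 against 85.7 and 76.1 CPM. Its groups overlapped, and its log2 fold change was -0.25 (SE 0.30). Cd40, the receptor for the T cell ligand CD40L, stood at 24.7 and 26.4 against 54.1 and 41.9 CPM (-0.91, SE 0.35), with no overlap.

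Cd180 and Ly86 encode the 2 chains of the RP105 and MD-1 complex, a toll-like receptor relative of B cells. Cd180 stood at 31.1 and 18.9 against 71.9 and 29.1 CPM, so that Aire-/- replicate 1 lay above Aire+/+ replicate 2, with a log2 fold change of -1.02 (SE 0.45) that was -0.23 without Aire+/+ replicate 1. Ly86 stood at 77.6 and 66.9 against 115 and 94.1 CPM, without overlap (-0.53). Of the inhibitory coreceptors, Cd72 stood at 84.0 and 81.1 against 129 and 110 CPM without overlap (-0.54, SE 0.24), while Cd22 stood at 218 and 115 against 233 and 155 CPM with overlap (-0.22, SE 0.30). Cd22 lay at 0.17 without Aire-/- replicate 2 and at 0.097 without Aire+/+ replicate 1.

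Among the other surface genes, Cd83, an activation protein that stabilises class II molecules, was the most abundant of the 38 per length, at 418 CPM per kilobase of its longest transcript, followed by Cd79b at 365 and Cd79a at 309. It stood at 755 and 948 CPM in the Aire-/- and 1536 and 904 CPM in the Aire+/+ libraries, with overlap (log2 fold change -0.52, SE 0.23). Cr2, the complement receptor CD21, stood at 118 and 98.1 against 186 and 128 CPM with no overlap (-0.54). Cxcr5, the receptor that leads B cells to follicles, stood at 134 and 236 against 343 and 204 CPM, with a wide gap between the Aire-/- libraries.

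Cd37, a tetraspanin of lymphocytes (log2 fold change -0.23), Cd24a, a lipid-anchored surface protein (-0.43), and Cd38, an enzyme that consumes NAD (-0.12), are also expressed outside B cells. For each of these 3 the groups overlapped. Cd38 was nearly equal in the Aire-/- libraries at 125 and 124 CPM and lay on both sides of them in the Aire+/+ libraries, at 168 and 103 CPM.

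**Figure D3:**
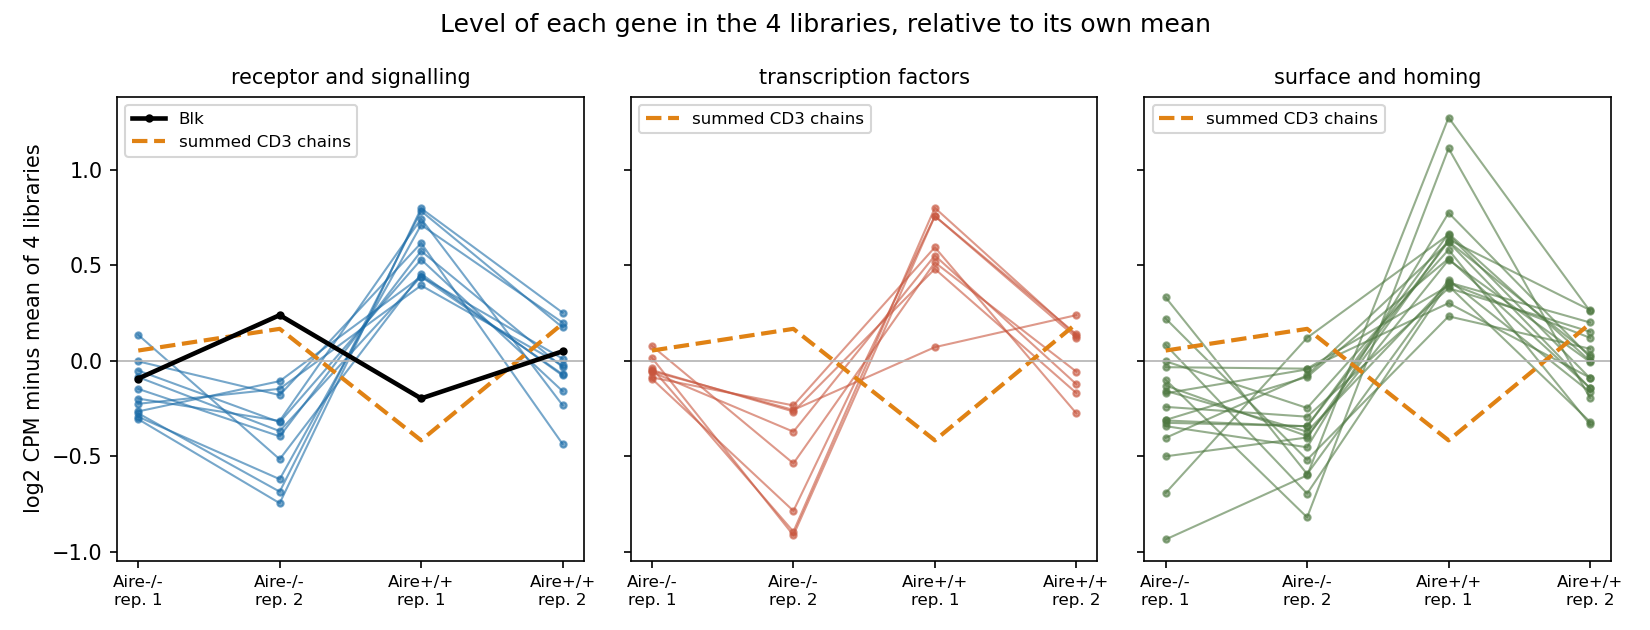
Log2 CPM of each gene minus its own mean over the 4 libraries, in 3 panels by role, with Blk in black and the summed CD3 chains as a dashed orange line; lines only join the points of a gene. The genes peak together in Aire+/+ replicate 1, where Blk and the CD3 chains are at their lowest.

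Co-variation over the 4 libraries was described by the highest over the lowest library of each gene. As CPM this ratio had a median of 1.96 over the 38 genes, against 1.71 over all genes tested. Relative to the summed CPM of the 13 B cell restricted genes, with the gene itself left out of the sum, the median fell to 1.47 for the 38 genes and stood at 2.28 for all genes. The ratio was smaller after this scaling than before it for 35 of the 38, beside 20.6% of 9758 genes with a count in every library. The exceptions were Blk, Pou2af1 and Cd37. Relative to the CD3 chains the median was 2.93, against 1.98 over all genes tested. Blk alone of the 38 had a smaller ratio there (1.29, from 1.35 as CPM), beside 25.8% of the 9758 genes. The 38 were chosen as B cell genes and 12 or 13 of them form the sum, so this describes the set and tests nothing.

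Some genes followed the sum closely. Cr2 (1.105), Lyn (1.11), Ebf1 (1.12), Blnk (1.13) and Mef2c (1.16) had the smallest ratios of highest to lowest library relative to the B cell restricted genes, from 1.90, 1.96, 1.90, 1.75 and 2.07 as CPM. Ebf1, for example, stood at 6.06 and 6.45 per 100 of the sum in the Aire-/- and 6.19 and 5.77 in the Aire+/+ libraries, and these groups overlapped. Blk ranged most widely after Tnfrsf13b, at 15.5 and 25.7 against 9.64 and 17.0 per 100 of the sum.

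On this scale 9 of the genes kept the separation they had as CPM. For these 9 of the 38 both Aire-/- values lay below both Aire+/+ values, beside 2.29% of all genes, and for 2, Spib and Cd38, they lay above, beside 40.4%. The sum itself was lower in the Aire-/- libraries, at 2744 and 2076 against 4100 and 2760 CPM. Dividing by it moved the shares of all genes away from the 17.3% and 17.1% seen as CPM. The count of 9 is therefore not read as an excess. The 9 were Cd79a, Vpreb3, Syk, Pax5, Bcl11a, Bach2, Faim3, Cd40 and Tnfrsf13b. Syk stood at 5.16 and 5.13 per 100 of the sum in the Aire-/- and 7.19 and 7.01 in the Aire+/+ libraries. Cd79a stood at 14.4 and 15.3 against 20.3 and 21.4 per 100. Both had Aire-/- values close together and Aire+/+ values close together, although the Aire+/+ libraries differed widely as CPM. Pax5 differed less evenly, at 1.87 and 1.29 against 2.09 and 2.02 per 100.

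**Figure D4:**
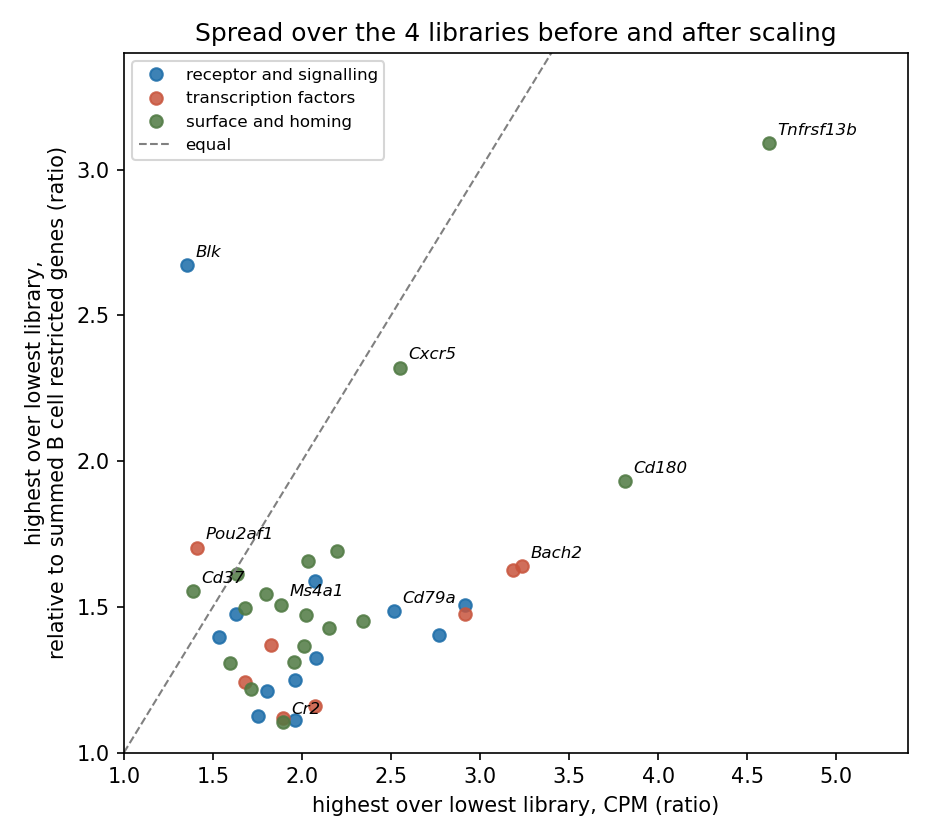
Highest over lowest library of each gene as CPM (horizontal) and relative to the summed B cell restricted genes (vertical), coloured by role, with a dashed line where both are equal. Of the 38 genes 35 lie below the line, and Blk, Pou2af1 and Cd37 above it.

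Beside the 38, all 10 class II antigen presentation genes lay below 0 (median -0.70). None of the 10 was called by edgeR. At an unadjusted p under 0.05, 5 were lower and 0 higher, beside 2.77% and 2.8% of all genes. Cd74, the invariant chain, stood at 906 ± 104 against 1763 ± 410 CPM. The 10 genes summed to 6662 and 5332 CPM in the Aire-/- and 12731 and 7777 CPM in Aire+/+ samples. These sums were ordered as those of the 38 genes (6694 and 6183 against 10684 and 7201 CPM). Of 9 genes of antibody-secreting cells 6 were tested, 4 lay below 0 and 1 was called lower by edgeR, Igj, the joining chain, with 0 and 4 counts against 1674 and 827. Of 18 further B cell genes tested, some of them shared with T cells, 15 lay below 0 and 3 above (median -0.42), 0 were called by edgeR, and 4 were lower and 0 higher at an unadjusted p under 0.05. Among them Btla, an inhibitory receptor of B and T cells, stood at 116 ± 7.20 against 224 ± 65.0 CPM (log2 fold change -0.95, adjusted p = 0.67, edgeR). Immunoglobulin constant genes were not analysed here.

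Of 14 genes of the γδ T17 program 13 were tested. All 13 had log2 fold changes above 0 (median 0.49), as did all 4 CD3 chain genes (median 0.25), and 0 were called by edgeR. The gene not tested, Sox4, went the other way, with 3 and 0 counts in the Aire-/- against 7 and 7 in the Aire+/+ libraries. At an unadjusted p under 0.05, 7 of the 13 and 0 of the 4 were higher, beside 2.8% of all genes. Of 10 genes of proximal T cell receptor signalling, 8 lay above 0 and 2 below (median 0.21), with 0 called by edgeR. Here 3 were higher and 1 lower at an unadjusted p under 0.05, beside 2.8% and 2.77% of all genes. The lower one was Cd2, an adhesion receptor of lymphocytes, at a log2 fold change of -0.76 with groups that did not overlap. It stood at 97.7 and 73.5 against 181 and 109 CPM, highest in Aire+/+ replicate 1 like the B cell genes. Lcp2, the adaptor SLP-76, lay at 0.89. The T17 genes summed to 7718 and 8606 CPM in the Aire-/- and 5068 and 7247 CPM in the Aire+/+ libraries, lowest in Aire+/+ replicate 1, where the B cell genes were highest. Cd163l1 alone gave 3891 and 4356 against 2604 and 3723 CPM of these sums. The part of a shift in cell mixture in the B cell differences was not tested.

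Of 13 macrophage and monocyte genes 7 were tested, with summed levels over the 13 of 1226 and 1499 against 1532 and 1244 CPM. Of the 7 tested, 6 lay below 0 and 1 above (median -0.95). None was called by edgeR, and 4 were lower and 1 higher at an unadjusted p under 0.05, beside 2.77% and 2.8% of all genes. The higher one was Ccr2, a chemokine receptor that γδ T cells share and the most abundant of the list. Without Ccr2 the sums were 398 and 442 against 895 and 468 CPM, highest in Aire+/+ replicate 1 like the B cell genes. Cd14, the monocyte lipopolysaccharide co-receptor, had 0 and 0 counts against 32 and 11, and Mrc1, the mannose receptor, 2 and 3 against 13 and 12. Ctss, a lysosomal protease that B cells also express, stood at 247 and 243 against 411 and 301 CPM, without overlap, and Apoe, a lipid carrier, at 91.3 and 83.9 against 248 and 89.8 CPM, with overlap. Csf1r, the growth factor receptor that defines macrophages, had 1 and 6 counts against 14 and 3, with overlap. Lyz2, a lysozyme, swung widely within each genotype, with 1 and 61 counts against 186 and 2. It gave 150 CPM of the Aire+/+ replicate 1 sum without Ccr2. Among genes not tested, Itgax had 9 and 5 counts against 1 and 3, higher in Aire-/- without overlap. Emr1 had 15 and 3 counts against 2 and 6, with overlap. Of 8 dendritic cell genes 3 were tested (sums of 121 and 141 against 117 and 109 CPM), and Siglech, which marks plasmacytoid dendritic cells, had 8 and 4 counts against 3 and 10. Beside these, the summed level of the 13 restricted B cell genes was 2744 and 2076 CPM in the Aire-/- and 4100 and 2760 CPM in the Aire+/+ libraries. What part myeloid and dendritic cell transcripts had in the levels of Spib, Bcl11a, Btk, Lyn and Syk, which those cells also express, was not tested. Of 7 αβ T cell and of 7 natural killer cell genes 4 each were tested, of 7 mast cell, basophil and neutrophil genes 0, and of 12 lung structural and blood genes 1, with 0 called by edgeR in these 4 lists (2 lower and 0 higher at an unadjusted p under 0.05).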

How the data were processed

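The deposited table held whole-number read counts per gene symbol, 1 column per library and no normalization visible in the values, per the file headers. Per the submitters' processing notes, TopHat2 2.0.10, Cufflinks 2.2.1 and build mm10 were used, in roles that are not stated. How reads were counted, and the annotation, strand and duplicate handling, were not given in the sources used here. Over whole gene spans, introns and both strands included, 22 of the 38 genes overlap another GENCODE M21 gene. Among them are Cxcr5 (Bcl9l), Cd180 (Mast4), Cd37 (Tead2), Cd72 (Tesk1) and Ralgps2 (Angptl1). How many of them share exons was not examined, and reads from shared exons cannot be told apart. Smart-Seq2 reads carry no molecular identifiers, so the intervals cover error in counting reads only, not in counting molecules.

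Groups came from the sample titles. All 22865 genes entered edgeR 4.0.16 in R 4.3.3 (filterByExpr with minimum count 10 and minimum total 15, TMM, quasi-likelihood test on genotype, Benjamini-Hochberg over the 9783 genes left, threshold 0.05). SE is approximate, the absolute log2 fold change over the square root of F. Alternatives were DESeq2 1.42.0 and limma 3.58.1 (voom), other size factors, other filters, scaling to the CD3 chains, a replicate block and each library left out. The fit was tested on simulated data. Some list genes are counted but not reported here by name. The genes and all lists were chosen with earlier results of these data known. All 38 genes are named. Values per library are given for those fixed by name, those with the smallest p and those nearest to or above 0. Other lists are shown by up to 4 genes of smallest p plus fixed genes. Ccr2, Csf1r, Siglech, Lyz2, Itgax, Emr1, Sox4, Cd163l1, Fcgr2b and Fcrl5 were named after their values were seen. Positions and lengths came from GENCODE M21 and promoters from RefSeq, both GRCm38. Python 3.11.15 with pandas 2.3.3, numpy 2.4.6 and matplotlib 3.10.9 served for the descriptions.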

Additional observations from a re-analysis of the deposited data

How the results depend on the processing

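The median log2 fold change of the 38 genes stayed below 0 under every alternative run, from -0.80 when scaled to the CD3 chains, where the median of all genes shifted to -0.24, to -0.20 in the leave-one-out fits (-0.74 to -0.20). Genes called lower numbered 3 (Cd79a, Syk and Faim3) with no filter beyond a total count above 0, which tested 20402 genes, and 0 to 5 with single libraries left out. Calls over all genes, 2 as reported, were 4 by DESeq2's Wald test, 1 by limma-voom, 47 with no filter, 6 with the replicate block, 7 when scaled to the CD3 chains and 12 to 63 with a library left out, where the lone library is assumed to vary like the pair. Directions turned for Blk when scaled to the CD3 chains (-0.081), and with libraries left out for Blk (-0.027 to 0.31), Cd22 (-0.75 to 0.17), Tnfrsf13c (-0.66 to 0.067), Btk (-0.71 to 0.34), Spib (-0.64 to 0.0073), Pou2f2 (-0.75 to 0.11), Ms4a1 (-0.70 to 0.20) and Cd38 (-0.43 to 0.27); the cause was not tested. Groups that did not overlap numbered 25 with library totals and 15 when scaled to the CD3 chains, against 20. The share of all genes was not taken under these 2 other scalings, so neither count can be read as an excess. With the replicate block 0 of the 38 genes were called (median -0.50). The labels share only numbers, and the deviations of same-numbered libraries correlated at -0.077 over genes, so the numbers are not taken to pair libraries. Among the 38 genes alone, replicate 1 lay above replicate 2 for 29 in Aire-/- (median log2 difference 0.22) and for 36 in Aire+/+ (0.61). Genes of about 10 counts in the Aire-/- libraries, such as Tnfrsf13b and Vpreb3, rest on few reads. Whether sequencing depth or the 500 cells per library set this limit was not tested.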
